A study of Mus musculus with 12 samples.

Results

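The T cell receptor genes described here are the variable (V) and constant (C) gene segments of the mouse alpha, beta, gamma and delta receptor chains. They were chosen by symbol: every gene of the count matrix whose GENCODE symbol begins with Trav, Trbv, Trbc, Trac, Trdv, Trdc, Trgv or Tcrg- and that had at least 10 counts over 12 libraries. This gave 108 segments of the 156 under these prefixes, in a matrix of 43626 genes. They were 71 Trav, 22 Trbv, Trac, Trbc1, Trbc2, 9 gamma segments (Tcrg-V3, Tcrg-V4, Tcrg-V6, Tcrg-V7, Trgv2 and the constants Tcrg-C1 to Tcrg-C4) and 3 delta V segments (Trdv1, Trdv2-2 and Trdv5). Trdc, the delta constant segment, was not analysed here. Of the 108, 7 are annotated as pseudogenes, which carry no intact reading frame.

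RNA was sequenced from CD4+ T cells of the mouse spleen. Naive CD45RBhi CD25- CD4+ T cells of a donor were injected into adult male Rag2-/- mice. The spleens of 6 such recipients were taken 3 weeks later, and their CD4+ cells were split by sorting into those with and those without GFP. All donors were Eomes flox/GFP, with a GFP reporter in 1 allele of Eomes, which encodes a T-box transcription factor, and loxP sites in the other. Het donors had no cre, and KO donors also carried Lck-cre, a recombinase driven by a T cell promoter. Genotype and GFP make 4 groups of 3 libraries, and the libraries of a genotype that share a number came from 1 recipient. The host lacks T and B cells of its own but keeps NK cells, other innate lymphoid cells and myeloid cells, and Lck-cre was present in the GFP-negative and GFP-positive cells of the KO donors alike.

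An alpha-beta T cell carries a receptor built from 1 rearranged alpha chain, in which a Trav segment is joined to a Traj segment and spliced to Trac, and 1 rearranged beta chain, in which a Trbv segment is joined through D and J segments to Trbc1 or Trbc2. The daughters of a T cell keep its rearrangement, so the segments used in a population of cells depend in part on which founder cells expanded. Many founders can carry the same segment, and the joins themselves were not analysed here. Gamma and delta chains form the receptor of a separate T cell lineage, but gamma loci can also be rearranged or transcribed in other lymphocytes. Recombination needs Rag1 and Rag2, and a recipient without Rag2 cannot rearrange receptor genes.

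The gamma segments that carry the results below are Tcrg-V4, Tcrg-V6 and Trgv2, and their last 60 coding bases are shown from the GENCODE M21 transcripts on GRCm38, 5′ to 3′. Capitals mark the last in-frame cysteine codon that follows a tyrosine, phenylalanine or leucine codon, near which the V segment is joined. The stretches lie at chr13:19185447-19185506 (plus strand) for Tcrg-V4, chr13:19190870-19190929 (plus strand) for Tcrg-V6 and chr13:19336573-19336632 (minus strand) for Trgv2.
Tcrg-V4: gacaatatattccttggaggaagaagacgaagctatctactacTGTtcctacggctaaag
Tcrg-V6: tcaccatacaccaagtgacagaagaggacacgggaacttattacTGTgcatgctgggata
Trgv2: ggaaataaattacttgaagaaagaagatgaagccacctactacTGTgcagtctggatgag
Over the whole coding sequence Tcrg-V4 was 55.6% identical to Tcrg-V6 and 69.7% identical to Trgv2, so the gamma V segments named here differ throughout. Trgv2 was 95.7% identical to Tcrg-V1, which is not among the 108. Tcrg-V4, Tcrg-V6, Tcrg-V7 and Tcrg-C1 lie in 1 cluster on chromosome 13. There the annotation also places Gm31887 on the opposite strand of Tcrg-V7, Tcrg-V4 and Tcrg-V6. The library kit keeps the strand, but the strand setting of the counting is not given in the sources used here, so reads of Gm31887 cannot be told apart from those of these V segments.

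The 6 Trbv segments shown next each led the beta V counts of a GFP-positive library or came close behind the leader. The same codon is in capitals, and the stretches lie at chr6:41557693-41557752 (minus strand) for Trbv31, chr6:41163497-41163556 (plus strand) for Trbv17, chr6:40891826-40891885 (plus strand) for Trbv1, chr6:41152171-41152230 (plus strand) for Trbv16, chr6:41178989-41179048 (plus strand) for Trbv19 and chr6:41121773-41121832 (plus strand) for Trbv13-2.
Trbv31: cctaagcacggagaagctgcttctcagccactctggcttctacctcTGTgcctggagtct
Trbv17: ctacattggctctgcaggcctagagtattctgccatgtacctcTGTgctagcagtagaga
Trbv1: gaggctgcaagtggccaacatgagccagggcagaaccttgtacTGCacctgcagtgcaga
Trbv16: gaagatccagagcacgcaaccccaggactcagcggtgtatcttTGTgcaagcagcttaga
Trbv19: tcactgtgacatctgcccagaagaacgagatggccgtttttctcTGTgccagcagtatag
Trbv13-2: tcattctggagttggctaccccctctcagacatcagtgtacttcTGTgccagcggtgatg
No Trbv member with an annotated coding sequence reached 95% identity with another Trbv segment, and the highest identity was 90.6%. Counts of Trbv segments can thus be told apart better than those of the alpha locus, parts of which are present in 3 copies, with d and n in the symbols of the added copies. Of the 66 Trav members with an annotated coding sequence, 54 were at least 95% and 28 at least 98% identical to another Trav segment.

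The Trav9-1 and Trav9d-1 pair shows how close such copies are, and Trav9-1 is an alpha segment with a tested difference below. Their second coding exons, at chr14:53488277-53488567 (plus strand) for Trav9-1 and chr14:52792487-52792777 (plus strand) for Trav9d-1, are shown with capitals in Trav9-1 where its base differs from that of Trav9d-1.
Trav9d-1: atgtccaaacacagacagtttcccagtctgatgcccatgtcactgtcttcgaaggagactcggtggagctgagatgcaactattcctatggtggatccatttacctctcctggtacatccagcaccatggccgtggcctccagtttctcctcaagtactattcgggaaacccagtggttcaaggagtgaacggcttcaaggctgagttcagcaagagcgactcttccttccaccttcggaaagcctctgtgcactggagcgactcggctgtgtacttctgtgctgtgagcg
Trav9-1: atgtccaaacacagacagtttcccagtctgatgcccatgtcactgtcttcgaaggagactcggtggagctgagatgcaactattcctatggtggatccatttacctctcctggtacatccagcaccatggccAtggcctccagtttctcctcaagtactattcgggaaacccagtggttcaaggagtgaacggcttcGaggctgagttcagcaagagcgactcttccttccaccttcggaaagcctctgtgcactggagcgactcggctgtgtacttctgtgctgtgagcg
They differed at 2 of 291 bases, so a read assigned to either may come from the other, and values of single Trav segments in such families are uncertain. How reads that match several places were counted is not given in the sources used here.

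Total counts per library ran from 2116894 to 18167236, lowest in KO GFP-positive library 2, and the GFP-positive libraries were made from 18000 to 117000 sorted cells against 645000 to 2100000 for the GFP-negative ones. The libraries held 853 to 22419 receptor counts. Eomes was at 89.7 to 123 counts per 1000000 (CPM) in the Het and at 31.5 to 46.6 CPM in the KO libraries with GFP, and at 1.94 to 9.18 CPM in the libraries without GFP. Whether its counted exons lie outside the deleted part is not given in the sources used here. CPM here are scaled by TMM, edgeR's correction for composition. KO GFP-positive library 1 weighed on the comparison of the KO sorts. In the edgeR test described below, 0.128% of tested genes were called in KO cells with all libraries, and 12.6% without that library. Markers of CD4+ T cells were present in every library: Cd4 was at 435 to 944 CPM and Trac at 84.6 to 253 CPM, and Cd8a did not exceed 2.14 CPM. Myeloid transcripts were present too. The summed level of 8 myeloid genes exceeded that of 7 CD4+ T cell genes in Het GFP-positive library 2 (2095 against 1357 CPM) and library 3 (3549 against 1542 CPM). It was the lower sum in all other libraries. The reads have no molecular identifiers, and intervals made from counts therefore cover counting error alone.

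Tcrg-V4, a variable segment of gamma chains, was nearly absent from GFP-positive cells of both genotypes. Its counts were 35, 40 and 42 in the Het GFP-negative libraries and 0, 0 and 1 in the Het GFP-positive libraries. They were 39, 27 and 28 in KO GFP-negative and 0, 0 and 0 in KO GFP-positive libraries. The groups did not overlap in either genotype, and the GFP-negative member was the higher in 6 of 6 recipients. Mean levels were 2.58 ± 0.18 CPM (SD, n = 3) in Het GFP-negative and 2.07 ± 0.97 CPM (SD, n = 3) in KO GFP-negative cells. The Het GFP-negative level was 52.2 times the GFP-positive one, with an exact 95% counting interval of 9.19 to 2079. In KO cells it was at least 12.4-fold higher in GFP-negative libraries, taking 3 counts over the group as the limit that 0 counts allow.

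In edgeR's quasi-likelihood test over all 12 libraries, with Benjamini-Hochberg adjustment over 13238 tested genes, Tcrg-V4 fell by 5.45 (SE 0.80) on the log2 scale in Het GFP-positive cells, adjusted p = 0.00798. Tcrg-V4 fell by 7.53 (SE 1.10) in KO GFP-positive cells, adjusted p = 0.0384. The Het call held without each library in turn (adjusted p of 0.0217 to 0.037). The KO call was lost without any of 5 libraries, with an adjusted p of 0.0965, 0.0751 or 0.0581 when KO GFP-negative replicate 1, 2 or 3 was left out. It was 0.0658 and 0.213 when KO GFP-positive replicate 2 or 3 was left out. In a fit that blocks on the recipient it was called in both genotypes (adjusted p = 0.00179 in Het and 0.00362 in KO). The fitted changes against groups at 0 depend on edgeR's prior count. In bulk RNA, fewer cells that carry a transcript and less transcript per cell cannot be told apart.

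**Figure D1:**
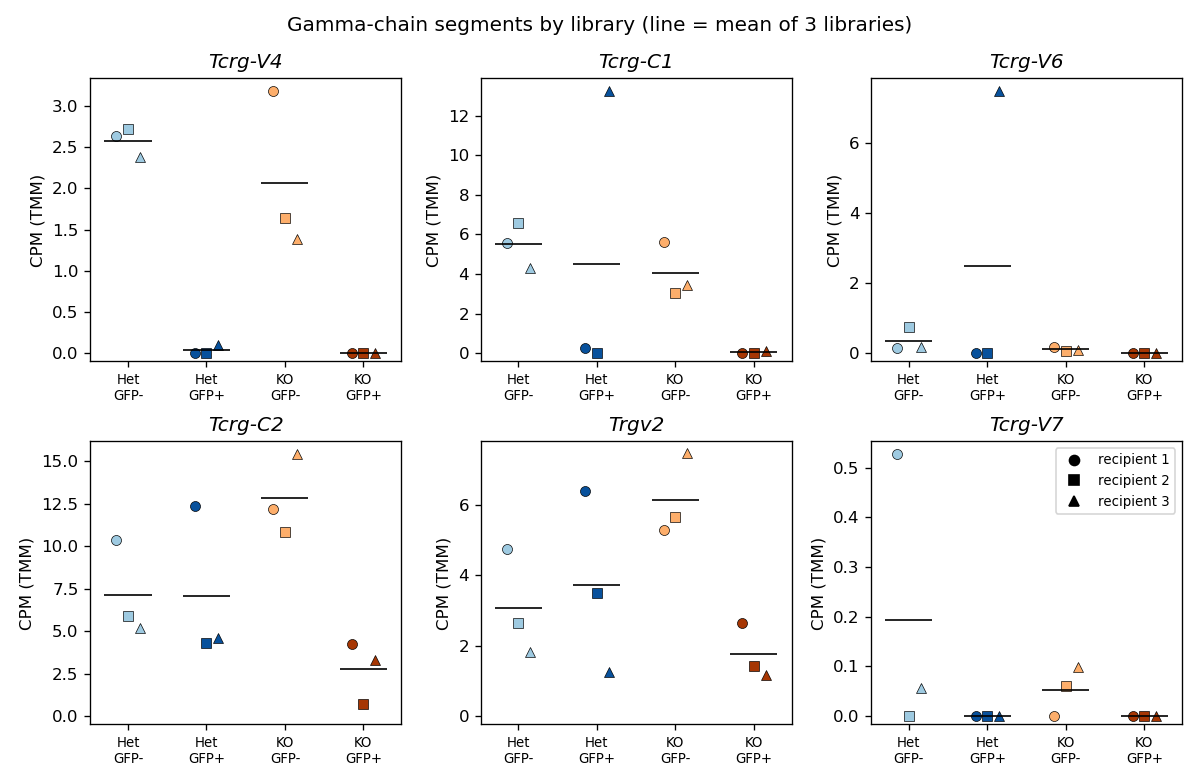
Level of 6 gamma segments (y axis, TMM-scaled CPM) in each library, by group (x axis) and recipient (symbol), with the group mean as a line. Tcrg-V4 lay between 1.39 and 3.17 CPM in all GFP-negative libraries and at or under 0.0972 CPM in all GFP-positive ones, while Tcrg-C1 and Tcrg-V6 were high in Het GFP-positive library 3.

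Tcrg-C1, the constant segment of the same cluster, was lower in GFP-positive cells in 5 of 6 recipients. Its counts were 74, 97 and 76 in Het GFP-negative, 69, 50 and 69 in KO GFP-negative and 0, 0 and 1 in KO GFP-positive libraries. In the Het GFP-positive libraries they were 2, 0 and 136, so library 3 stood apart. The same library held 77 of the 98 Tcrg-V6 counts of the series, with 0 and 0 in the other Het GFP-positive libraries and 1 to 11 in the GFP-negative ones. In edgeR's test Tcrg-C1 differed by -0.15 (SE 0.95) in Het, adjusted p = 0.943, and by -6.00 (SE 1.76) in KO cells, adjusted p = 0.198. Without Het GFP-positive replicate 3 the Het difference in Tcrg-C1 was -4.74, adjusted p = 0.0144, and with the recipient as a block the KO difference passed (adjusted p = 0.0307). That blocked call was lost without KO recipient 1, 2 or 3 (adjusted p of 0.0832, 0.0794 and 0.199). The KO GFP-negative level of Tcrg-C1 was 74.3 times that of KO GFP-positive cells by counts, with an exact 95% counting interval of 13.2 to 2949.

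Tcrg-C2 and Trgv2 are a constant and a variable segment of another gamma cluster on the opposite strand. Both were lower in all 3 KO GFP-positive libraries than in the KO GFP-negative ones, and neither was in Het cells. Tcrg-C2 was at 10.4, 5.91 and 5.16 CPM in Het GFP-negative and 12.4, 4.29 and 4.57 CPM in Het GFP-positive libraries. It was at 12.2, 10.8 and 15.4 CPM in KO GFP-negative against 4.24, 0.71 and 3.29 CPM in KO GFP-positive libraries. The Het groups overlapped and the KO groups did not. Tcrg-C2 differed by -1.99 (SE 0.49) in KO cells in edgeR's test, adjusted p = 0.169, and by 0.02 (SE 0.46) in Het cells, adjusted p = 0.984. Trgv2 differed by -1.74 (SE 0.59) in KO cells, adjusted p = 0.227. With the recipient as a block both passed in KO, with adjusted p of 0.00258 for Tcrg-C2 and 0.0157 for Trgv2, and that of Trgv2 was lost without KO recipient 2 or 3 (adjusted p of 0.0560 and 0.210). Tcrg-C2 also passed in the fit without KO GFP-positive replicate 1, adjusted p = 0.0352. The interaction of GFP and genotype was 2.01 (SE 0.67) for Tcrg-C2, adjusted p = 1.00, so the KO and Het differences were not shown to differ.

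The other gamma segments had few counts. Tcrg-C4 summed to 58 counts, Tcrg-V3 to 15, Tcrg-V7 to 11 and Tcrg-C3 to 11 over the 12 libraries, and none passed the filter on low counts. Gamma counts per 1000 counts of Trac, Trbc1 and Trbc2 were 45.6, 25.0 and 20.6 in Het GFP-negative and 34.6, 17.4 and 43.8 in Het GFP-positive libraries. They were 33.1, 31.4 and 35.2 in KO GFP-negative against 10.8, 4.70 and 10.7 in KO GFP-positive libraries. The KO groups did not overlap, and neither did the GFP-positive libraries of the 2 genotypes. An exact two-sided permutation test gave p = 0.1 for each of these differences, the smallest that 3 against 3 allows.

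The delta V segments Trdv1, Trdv2-2 and Trdv5 summed to 12 counts in the Het and 43 counts in the KO libraries without GFP, and to 0 and 1 counts in those with GFP. The summed level was lower in GFP-positive cells in 6 of 6 recipients, at 0.60 CPM on average in GFP-negative cells. Trdv5 is encoded within Trdc on the opposite strand, and 9 of its 11 counts came from KO GFP-negative library 2.

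Lists of markers of other lymphocytes were summed beside the gamma result. Of a list of 9 gamma-delta T cell genes, 8 were measured. In Het cells the summed level of these 8 was 114 to 225 CPM with GFP and 221 to 259 CPM without it. In KO cells it was 84.3 to 164 CPM with GFP and 139 to 251 CPM without it. It was lower in GFP-positive cells in 6 of 6 recipients. Cd163l1, the gene of a scavenger receptor of gamma-delta T cells, fell by 1.89 on the log2 scale in Het cells (edgeR adjusted p = 0.0295), and that call was lost without Het GFP-negative replicate 1 or 2 (adjusted p of 0.0884 and 0.0647) or Het GFP-positive replicate 1 or 3 (0.0776 and 0.0797). Maf, a transcription factor gene also on the list, was at 75.8 to 202 CPM in the 12 libraries and was not called. Of the defining genes, Blk and Zbtb16 were under 1 CPM in every library, and Sox13 did not exceed 1.17 CPM. The summed level of 8 innate lymphoid cell genes, some of which CD4+ T cells share, was 340 to 475 CPM with GFP and 514 to 751 CPM without it, lower in 6 of 6 recipients. That of 9 NK cell genes was 45.9 to 562 CPM with GFP and 71.3 to 409 CPM without it, higher in 2 of 6. The sums of 2 CD8 T cell genes and of 6 B cell genes were each higher in 3 of 6. A sum of 7 CD4+ T cell genes, among them Trac, Trbc1 and Trbc2, was itself lower in 6 of 6. It was 1304 to 1784 CPM with GFP and 1848 to 2413 CPM without it. The part of gamma-delta T, innate lymphoid or NK cells in the Tcrg-V4 difference was not tested.

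The constant segments of the beta chain, Trbc1 and Trbc2, encode nearly the same protein region and follow separate clusters of J segments. Trbc2 was at 295, 424 and 298 CPM in Het GFP-negative against 221, 146 and 178 CPM in Het GFP-positive libraries. It was at 425, 362 and 445 CPM in KO GFP-negative against 350, 175 and 188 CPM in KO GFP-positive libraries. Neither pair of groups overlapped, and Trbc2 was lower in GFP-positive cells in 6 of 6 recipients. Trbc2 differed by -0.90 (SE 0.27) in Het, edgeR adjusted p = 0.0912, and by -0.78 (SE 0.27) in KO cells, adjusted p = 0.23. With the recipient as a block the adjusted p was 0.0187 in Het and 0.0291 in KO. The blocked call of Trbc2 was lost without Het recipient 2 or 3 (adjusted p of 0.169 and 0.0595) and without KO recipient 2 or 3 (0.135 and 0.261). Without KO GFP-positive replicate 1 and with no block the KO value was -1.17, adjusted p = 0.0206.

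Trbc1 did not follow Trbc2 in Het cells. It was at 115, 176 and 250 CPM in Het GFP-negative and 218, 216 and 269 CPM in Het GFP-positive libraries, higher in GFP-positive cells in all 3 Het recipients. It was at 142, 139 and 108 CPM in KO GFP-negative and 36.5, 124 and 82.4 CPM in KO GFP-positive libraries, lower in all 3 KO recipients. Between GFP-positive cells of the 2 genotypes Trbc1 did not overlap and was 1.57 (SE 0.38) higher in Het on the log2 scale, edgeR adjusted p = 0.257. DESeq2 called it as higher in Het (adjusted p = 0.0175). The authors' deposited table of Het GFP-positive against KO GFP-positive cells lists Trbc1 with a log2 value of -1.14 (adjusted p = 0.0378) and Eomes, which had more counts per 1000000 in Het, with -1.20. The signs of these genes in that table are thus the reverse of Het minus KO. The interaction of GFP and genotype was 1.10 (SE 0.52), adjusted p = 1.00.

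Trbc1 was 28.0%, 29.3% and 45.6% of the Trbc1 and Trbc2 counts in Het GFP-negative and 49.7%, 59.7% and 60.2% in Het GFP-positive libraries. The shares were 25.1%, 27.7% and 19.6% in KO GFP-negative and 9.43%, 41.4% and 30.5% in KO GFP-positive libraries. The share was higher in the GFP-positive library of 5 of 6 recipients, and the exception was KO recipient 1. Trbj1 segments, which join to Trbc1 and are a readout apart from it, gave 48.1%, 47.1% and 61.0% of all Trbj counts in Het GFP-negative and 72.2%, 77.0% and 52.0% in Het GFP-positive libraries. The Trbj1 shares were 45.0%, 45.1% and 52.9% in KO GFP-negative and 30.6%, 43.2% and 53.0% in KO GFP-positive libraries. In KO GFP-positive library 2 the share rests on 16 Trbj1 and 21 Trbj2 counts. In 4 of 6 recipients the Trbj1 share and the Trbc1 share differed in the same direction between the sorts. Het recipient 3 and KO recipient 2 were the exceptions. KO recipient 3 is among the 4 with a Trbj1 difference of only 0.13 percentage points, beside 10.9 for Trbc1.

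Beta V transcripts as a whole were lower in GFP-positive cells. The summed Trbv level was 149, 243 and 188 CPM in Het GFP-negative against 79.9, 76.8 and 129 CPM in Het GFP-positive libraries. It was 205, 223 and 216 CPM in KO GFP-negative against 101, 119 and 81.5 CPM in KO GFP-positive libraries. The groups did not overlap in either genotype, and the level was lower in 6 of 6 recipients. The mean difference was -106 ± 40.1 CPM (SD over 6 recipients), p = 0.0312 in an exact two-sided sign-flip permutation test, the smallest that 6 recipients allow. Adjusted over the 11 summary measures computed here it was 0.138, so no measure passed after adjustment.

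The alpha chain totals were lower on average as well, though not in every recipient, and the chains were not tested against each other. Trac differed by -35.6 ± 35.7 CPM (SD) and summed Trav by -12.8 ± 19.0 CPM (SD), each lower in 5 of 6 recipients. Per 100 Trbc counts there were 38.4 Trbv counts on average in GFP-negative and 27.4 in GFP-positive libraries, lower in 6 of 6 recipients. Per 100 Trac counts there were 38.1 Trav counts in GFP-negative and 38.6 in GFP-positive libraries, lower in 3 of 6 recipients. These ratios need no library scaling and were added after the data were seen. Myeloid markers moved with the sorts as well: the summed level of the 8 listed genes was higher in GFP-positive cells in 6 of 6 recipients, at 310 to 3549 against 141 to 1575 CPM. Its part in the lower receptor CPM was not tested. The summed level of 9 receptor complex and coreceptor genes, among them the CD3 chains and Cd4, was also lower in GFP-positive cells in 6 of 6 recipients. It was 1808 to 2278 CPM without and 1260 to 1478 CPM with GFP in Het, and 1826 to 1959 against 1092 to 1483 CPM in KO cells.

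**Figure D2:**
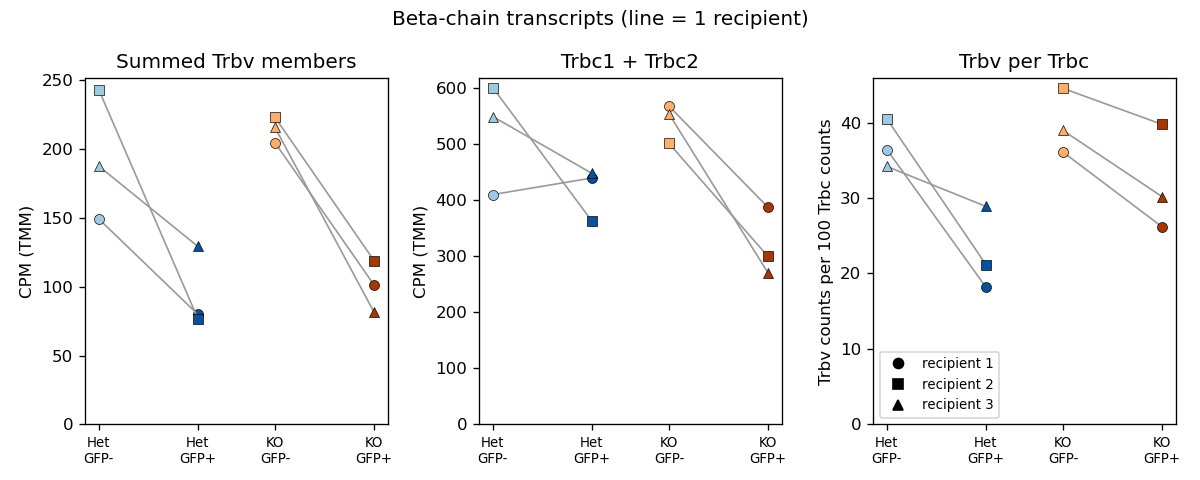
Summed Trbv level, summed Trbc1 and Trbc2 level (y axes, TMM-scaled CPM) and Trbv counts per 100 Trbc counts, by group (x axis), with a line for each of the 6 recipients. Summed Trbv and Trbv per Trbc were lower in the GFP-positive library of 6 of 6 recipients, and Trbc was higher only in Het recipient 1.

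Of the 108 segments, 60 passed the filter on low counts and were tested one by one. In Het cells 2 of 60 were called, Tcrg-V4 lower and Trav9-1 higher, where 3.45% of all tested genes were called. In KO cells Tcrg-V4 was called, 1 of 60, where 0.128% of all tested genes were called. With the recipient as a block the counts were 20 of 60 in Het, 19 lower and 1 higher, where 22.2% of all genes were called and 9.41% were called as lower. With the block they were 12 of 60 in KO, all lower, where 17.7% of all genes were called and 8.14% as lower. A segment could pass the filter through 1 group in which it was high, so these counts describe the 60 segments and not the 108. DESeq2 called 9 segments in Het and 2 in KO, where 5.92% and 1.78% of all genes were called. Fitted on the groups of a genotype alone, edgeR called 5 of 38 tested segments in Het and 0 of 39 in KO, where 3.44% and 0.0804% of all genes were called. Of these segments 16 in Het and 9 in KO were at an unadjusted p under 0.05, where 23.7% and 15.4% of all genes were. The median log2 difference of the tested segments was -1.27 in Het and -1.14 in KO cells, beside -0.02 in each over all tested genes. Scaling by alpha and beta receptor counts in place of TMM, called the receptor scaling below, moved the median of all genes to 0.40 in Het and 0.66 in KO cells, and that of the segments to -0.89 and -0.45. With the block and the receptor scaling together 23 segments were called in Het and 15 in KO, where 24.1% and 42.1% of all genes were called.

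Most Trbv segments had lower values in GFP-positive cells. Of 20 tested Trbv segments, 18 had a negative difference in each genotype, with a median of -1.95 in Het and -1.27 in KO cells. Under the receptor scaling 17 of 20 were negative in Het and 14 of 20 in KO. Trac turned from -0.31 to 0.06 in Het and from -0.26 to 0.40 in KO cells. The receptor scaling holds the sum of the alpha and beta segments equal between libraries, so a fall in some of them raises the others. It is thus no independent check of these signs. With the block 11 of 20 passed as lower in Het and 7 of 20 in KO, where 9.41% and 8.14% of all genes did. Of the 4 tested gamma segments 1 passed as lower in Het and 4 in KO with the block. The GFP-positive libraries lay below the GFP-negative ones without overlap for 10 of 20 in Het and 6 of 20 in KO, where 14.6% and 10.8% of all genes did. In 10 of the 20 Trbv segments the GFP-positive library was the lower in all 6 recipients, where 19.9% of all tested genes were, and in no tested segment was it the higher in all 6, where 17.7% of genes were.

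Trbv15 was at 20.5, 44.9 and 26.0 CPM in Het GFP-negative against 3.60, 2.73 and 1.36 CPM in Het GFP-positive libraries, and these groups did not overlap. Its log2 difference in Het cells was -3.61 (SE 1.03), edgeR adjusted p = 0.0771, and -3.48 with the recipient as a block, adjusted p = 0.000112. In KO cells Trbv15 was at 3.58, 47.8 and 4.12 CPM in GFP-negative and 1.49, 9.98 and 1.65 CPM in GFP-positive libraries, so recipient 2 stood above the others in both sorts. Trbv29 had 43, 288 and 3 counts in Het GFP-negative and 0, 0 and 1 in Het GFP-positive libraries. Its fitted difference was -7.02 (SE 1.77), edgeR adjusted p = 0.0512, and it passed without Het GFP-negative replicate 3 (-7.58, adjusted p = 0.0142), with the block (adjusted p = 0.00181, but 0.0540 with Het recipient 2 also left out), with no filter (adjusted p = 0.0468) and in DESeq2 (adjusted p = 0.00118).

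Usage of Trbv segments, the share of a library's Trbv counts on each, differed from recipient to recipient. Shares are of counts and not corrected for segment length, so they are compared between libraries. The highest mean shares over the 12 libraries were those of Trbv13-2 (10.7%), Trbv31 (10.3%), Trbv19 (9.46%), Trbv16 (7.96%), Trbv1 (7.87%) and Trbv15 (7.67%). In GFP-negative libraries the leading segment held 13.9% to 24.0%. In GFP-positive libraries it held 26.8% to 42.1%, and the leading segment was a different one in most.

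In Het GFP-positive cells Trbv17 led library 1 with 26.8% and Trbv31 led libraries 2 and 3 with 42.1% and 39.3%, followed in library 3 by Trbv1 with 37.2%. Trbv31 held 3.80% to 4.29% in the 3 Het GFP-negative libraries. In KO GFP-positive cells Trbv19 led library 1 with 28.5%, Trbv16 library 2 with 36.5% and Trbv13-2 library 3 with 28.4%. Trbv13-2 held 24.0% in the GFP-negative library of KO recipient 3, and Trbv16 held 12.8% in that of KO recipient 2. The Trbv segments printed above are the leaders of these libraries and Trbv1, and the identity of the leader was shared between the GFP-positive libraries of Het recipients 2 and 3 only.

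**Figure D3:**
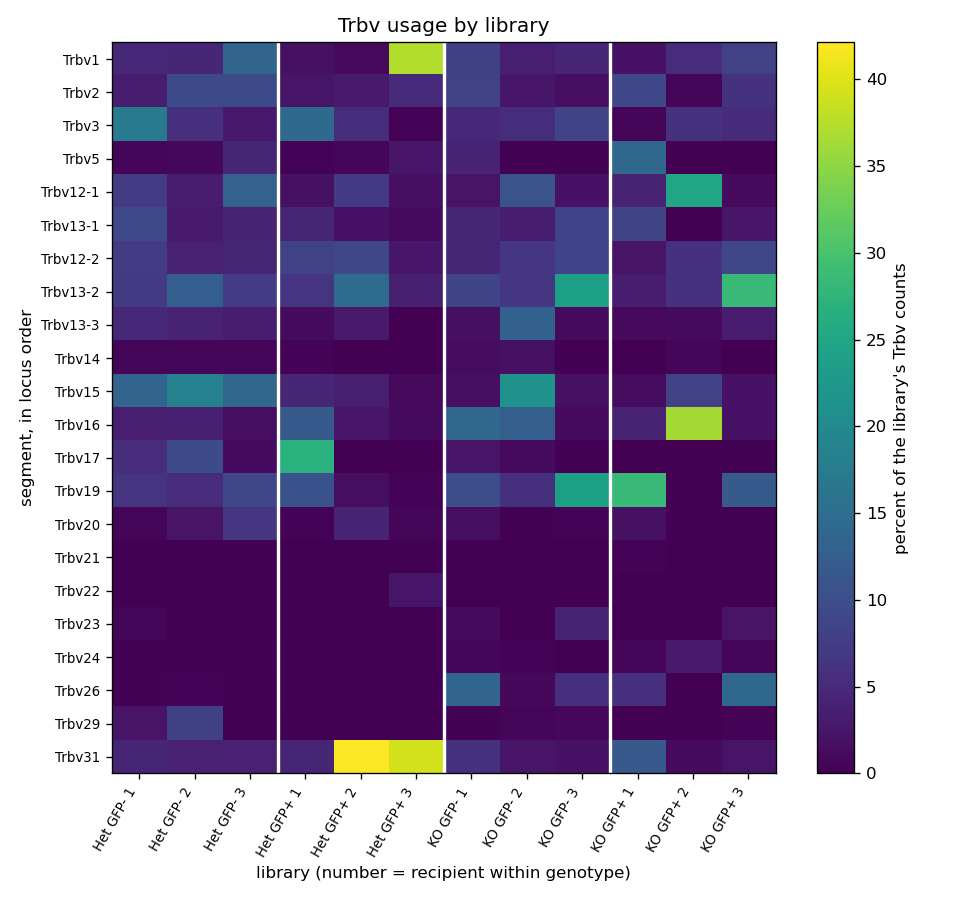
Share of each library's Trbv counts (colour, percent) on 22 Trbv segments in locus order (y axis) in the 12 libraries (x axis). GFP-positive libraries have 1 or 2 bright segments each, such as Trbv31 at 42.1% in Het GFP-positive library 2, and Trbv26 is at or under 0.392% in every Het library.

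Among segments with a mean share of at least 1%, those with the highest ratio of the highest to the lowest recipient mean were Trbv5, Trbv17, Trbv26 and Trbv29. Trbv5 held 3.98% and 14.2% in the libraries of KO recipient 1 and 0% to 4.41% in all others. Trbv26 held 0% to 0.392% in the 6 Het libraries. Trbv26 held 13.8%, 0.870% and 5.75% in KO GFP-negative and 5.86%, 0% and 14.0% in KO GFP-positive libraries, so it was rare in KO recipient 2 as well. The log2 difference in Trbv26 between Het and KO was -4.77 (SE 1.02) in GFP-negative cells, edgeR adjusted p = 0.326, and -5.41 (SE 1.36) in GFP-positive cells, adjusted p = 0.277. DESeq2 called Trbv26 in GFP-negative cells (adjusted p = 0.0471), and the authors' deposited table lists it for GFP-positive cells with a log2 value of 1.36 (adjusted p = 0.02), again with the reverse sign of Het minus KO.

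Evenness was summarised by the effective number of segments. This is the number of equally used segments that would give the same chance of drawing the same segment in 2 counts. The estimate of that chance is unbiased at any depth only if counts are independent draws. Without molecular identifiers, reads copied from the same molecule could not be removed, and their part was not tested. For Trbv the effective number was 11.2, 11.0 and 10.9 in Het GFP-negative against 7.42, 4.59 and 3.34 in Het GFP-positive libraries. It was 12.0, 9.07 and 6.87 in KO GFP-negative and 7.15, 4.67 and 7.22 in KO GFP-positive libraries. The Het groups did not overlap and the KO groups did. The number was lower in the GFP-positive library of 5 of 6 recipients, KO recipient 3 being the exception, with a mean difference of -4.44 ± 2.73 (SD over 6 recipients). The exact sign-flip p was 0.0625, and 0.138 adjusted over 11 measures.

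For Trav the effective number was 29.3, 28.0 and 24.6 in Het GFP-negative against 15.1, 21.3 and 6.45 in Het GFP-positive libraries, and these groups did not overlap. It was 25.1, 27.5 and 10.3 in KO GFP-negative and 9.01, 37.8 and 15.3 in KO GFP-positive libraries. The value of 37.8 rests on 44 Trav counts and has a counting SE of 11.9. Over recipients the difference was -6.66 ± 11.9 (SD), lower in 4 of 6, exact sign-flip p = 0.219. In KO recipient 3 the GFP-negative library was the least even of its group for both chains. The number of sorted cells differed in the same way as the sort: among Het GFP-positive libraries it was 117000, 55000 and 24800, and among KO GFP-positive libraries 94000, 49000 and 18000. The part of cell number in evenness was not tested.

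**Figure D4:**
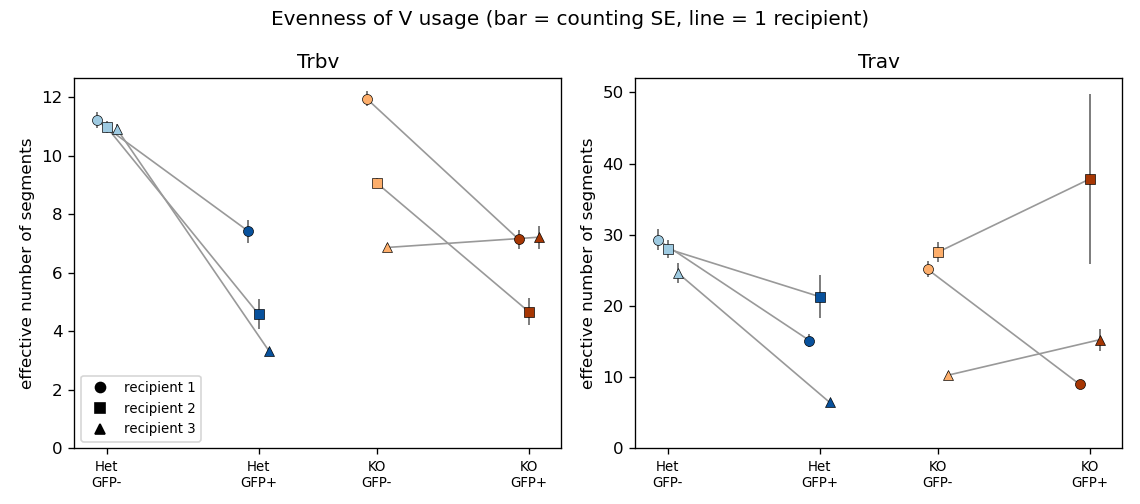
Effective number of Trbv and Trav segments (y axes) in each library by group (x axis), with counting SE as bars and a line for each of the 6 recipients. In Het recipients every GFP-positive library lies below its GFP-negative one, whereas KO recipient 3 rises from 6.87 to 7.22 for Trbv.

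In the alpha locus Trav9-1 was the segment called in Het cells. Its counts were 5, 6 and 8 in Het GFP-negative and 10, 12 and 65 in Het GFP-positive libraries, or 0.38, 0.41 and 0.45 against 1.33, 4.68 and 6.32 CPM. The groups did not overlap on the CPM scale, and Trav9-1 rose by 3.27 (SE 0.72), edgeR adjusted p = 0.0295. The call was lost without any of 5 libraries, with adjusted p of 0.0808, 0.139 and 0.0657 without Het GFP-negative replicate 1, 2 and 3, and 0.0689 and 0.0859 without Het GFP-positive replicate 2 and 3. In the blocked fit it held (adjusted p = 0.00136). Its near copies stood high in the same library: Trav9d-1 had 252 counts and the pseudogene Trav9n-1 had 77 in Het GFP-positive library 3, against 28 to 79 and 7 to 10 in the Het GFP-negative libraries. Trav9d-1 differed by 1.90 (SE 0.90) in Het cells, adjusted p = 0.228. In KO cells Trav9-1 was at 0.49, 0.73 and 0.10 CPM in GFP-negative and 0.74, 0.71 and 0.24 CPM in GFP-positive libraries, and the groups overlapped.

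The leading Trav segments again differed by recipient. Trav9d-1 led Het GFP-positive library 3 with 29.5% of its Trav counts, followed by Trav14-1 with 21.1%. Trav9-2 led KO GFP-positive library 1 with 27.5% and held 8.94% in the GFP-negative library of the same recipient, while it was at 0% to 1.15% in 9 of the other libraries and at 4.55%, 2 of 44 counts, in KO GFP-positive library 2. Trav5-1 held 20.1% and 18.8% in the GFP-negative and GFP-positive libraries of KO recipient 3, and 0% to 5.81% elsewhere. Trav4-2 held 5.15% and 10.1% in that recipient and at most 0.58% elsewhere. Trav15-2-dv6-2 and Trav6d-4 were highest in the GFP-positive library of KO recipient 1, with 9.62% and 9.18%. Trav7-6 held 9.83% and 10.5% in Het recipient 1 and 11.4% in KO GFP-negative library 2. Trav7-2 was highest in Het GFP-negative library 3 with 13.2%, and Trav6-7-dv9 in KO GFP-negative library 3 with 19.9%.

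By position, the 35 of 71 Trav segments nearest to the J segments held 51.0% to 63.3% of Trav counts in Het GFP-negative and 44.0% to 46.8% in Het GFP-positive libraries. Among KO libraries these shares were 51.3% to 65.7% without GFP and 42.5% to 64.8% with it. Annotated pseudogenes held 0.287% to 0.916% of V counts in GFP-negative and 0.749% to 5.13% in GFP-positive libraries, higher in 5 of 6 recipients (exact sign-flip p = 0.0625, adjusted 0.138). In Het GFP-positive libraries 1 and 3 the pseudogene Trav9n-1 held 32 of 37 and 77 of 112 of these counts, and Trav9n-1 belongs to the same family of d and n copies as Trav9-1, so its reads are uncertain too.

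Usage of both chains overlapped more between the 2 sorts of a recipient than between sorts of different recipients, and this call depended on how segments were grouped. The overlap of segment shares was measured by the Morisita index, which is near 0 for libraries with no segment in common and near 1 for libraries with the same shares. For Trbv the pair of libraries of the same recipient overlapped by 0.68, 0.38 and 0.41 in Het recipients 1 to 3 and by 0.66, 0.66 and 0.89 in KO recipients 1 to 3. The mean was 0.615, beside 0.432 for pairs of a GFP-positive and a GFP-negative library from different recipients of the same genotype. For Trav the same-recipient values were 0.66, 0.55 and 0.28 in Het and 0.63, 0.75 and 0.87 in KO recipients, with a mean of 0.623 beside 0.357.

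The excess of 0.183 for Trbv and of 0.266 for Trav each had p = 0.0278 in an exact one-sided permutation of the pairing within genotypes, the smallest that its 36 arrangements allow. Among the GFP-negative libraries of its own genotype, that of the same recipient was the nearest for 4 of 6 GFP-positive libraries in each chain. Among the GFP-negative libraries of both genotypes it was the nearest for 4 of 6 in Trbv and 3 of 6 in Trav. The Trbv excess rested in part on Trbv13-2, the segment with the highest mean share: without it the excess was 0.149, p = 0.139 in the same exact permutation test. With segments summed into families, which joins the d and n copies, the excess was 0.12 for Trav and 0.13 for Trbv, each with p = 0.0556 in that exact permutation test. GFP-negative libraries of a genotype overlapped by 0.657 for Trbv and 0.477 for Trav on average, and GFP-positive libraries by 0.347 and 0.321. The test was one-sided because the question was whether the 2 sorts of a recipient share more usage than sorts of different recipients.

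**Figure D5:**
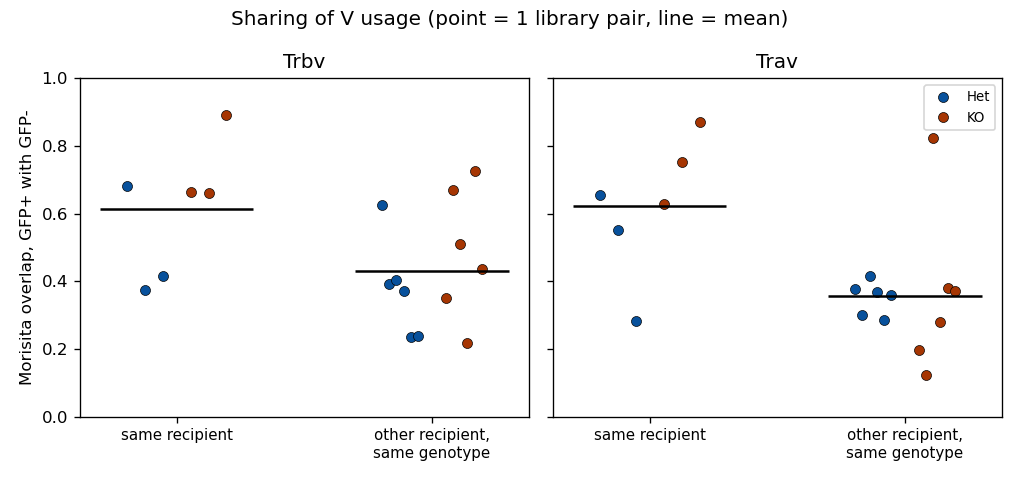
Morisita overlap of Trbv and Trav shares (y axis, 0 to 1) between a GFP-positive and a GFP-negative library of the same recipient or of different recipients of the same genotype (x axis), with a point for each pair and a line at the mean. The means are 0.615 against 0.432 for Trbv and 0.623 against 0.357 for Trav, and single pairs of the 2 kinds overlap.

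Between genotypes no segment was called by edgeR in GFP-positive cells (0 of 60, where 0.106% of all genes were called), in GFP-negative cells (0 of 60, where 0% were) or in the interaction (0 of 60, where 0.00755% were). With the block the interaction called 0 of 60, where 0.0755% were called, and 17 segments were at an unadjusted p under 0.05, where 4.77% of all genes were. Without the block there were 14, 3 and 5 segments at an unadjusted p under 0.05 in the GFP-positive, GFP-negative and interaction comparisons, where 6.22%, 5.25% and 1.99% of all genes were. DESeq2 called 1 segment in GFP-positive cells (Trbc1), 1 in GFP-negative cells (Trbv26) and 0 in the interaction, where 0.488%, 0.227% and 0.0568% of all genes were called. Trac was at 158, 157 and 160 CPM in Het GFP-negative and 252, 201 and 253 CPM in KO GFP-negative libraries, without overlap, and the log2 difference of Het from KO was -0.57 (SE 0.24), edgeR adjusted p = 0.935. The authors' deposited table for Het GFP-positive against GFP-negative lists 1406 genes, 13 of them among the segments. That for the KO pair lists 388 genes, with 4 segments (Tcrg-C1, Tcrg-C2, Tcrg-V4 and Trgv2). That for the GFP-positive pair lists 77 genes, with 2 segments (Trbc1 and Trbv26).

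Other genes of the receptor complex were measured beside the segments. Of 8 tested genes among Cd3d, Cd3e, Cd3g, Cd247, Cd4, Cd8a, Cd8b1, Cd28 and Ptcra, only the coreceptor Cd4 passed in edgeR's test, and in Het cells only: it fell by 0.76 (SE 0.17) on the log2 scale, adjusted p = 0.0333, and differed by -0.63 (SE 0.17) in KO cells, adjusted p = 0.172. The Het call of Cd4 was lost without Het GFP-negative replicate 1 or 2 (adjusted p of 0.0694 and 0.200) and without Het GFP-positive replicate 1, 2 or 3 (0.0688, 0.0947 and 0.0820). Cd3e, a signalling chain of the complex, differed by 0.28 (SE 0.19) in Het and 0.00 (SE 0.19) in KO cells, adjusted p = 0.383 and 0.992. Cd3g, another signalling chain, differed by -0.73 (SE 0.28) in Het and -0.69 (SE 0.28) in KO cells, adjusted p = 0.152 and 0.257. With the block 4 of the 8 passed as lower in Het (Cd3g, Cd4, Cd28 and Cd8b1) and 4 of 8 in KO (Cd3d, Cd3g, Cd4 and Cd28). Of all tested genes 9.41% and 8.14% passed as lower in that fit. Among 10 recombination genes 7 were tested and 0 passed in either genotype with or without the block. Over all genes 22.2% in Het and 17.7% in KO were called with the block, and 3.45% and 0.128% without it. Rag1 did not exceed 1.43 CPM and Dntt, which adds bases at the joins, 1.36 CPM in any library. Ptcra, the surrogate alpha chain of thymocytes, stayed under 1 CPM in all 12.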

How the data were processed

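The authors' deposited matrix of raw gene counts was used for 12 libraries of total RNA, ribosomal RNA depleted and made with a stranded kit per the labels' protocols. Per the submitters' processing notes the tools were bcl2fastq 1.8.4, TopHat2 2.0.13, featureCounts 1.5.0-p1 and DESeq2 1.6.1, with mm10. The authors' deposited tables of comparisons also give a mean signal (DESeq2 baseMean), log2 fold changes, a test score and p-values, and gene lengths are in the deposited count files. Here 13238 genes passed filterByExpr (minimum count 10, total 15) and were tested with edgeR 4.0.16 (quasi-likelihood, TMM, 4 group means) in R 4.3.3, tested on simulated data. Alternatives used DESeq2 1.42.0, other scalings and filters, and a recipient block. Usage statistics used Python 3.11.15 and SciPy 1.17.1, and sequence identities Biopython 1.88.

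The members and lists were chosen with earlier results of these data known. Named segments were every constant, gamma and delta segment, the 6 Trbv and 6 Trav with the highest mean share, called segments, and the 4 of each chain with the highest ratio between recipient means. The labels tie same-numbered libraries of a genotype to 1 recipient. Deviations from group means correlated between those libraries at r = 0.569, 0.262 and 0.648 in Het and 0.526, 0.538 and 0.262 in KO, across genes. Recipients are separate mice, so permutations between genotypes within a sort measure the spread between recipients. The edgeR and DESeq2 fits of all 12 libraries used 1 estimate of spread per gene. In their p-values between genotypes both libraries of a recipient thus entered that estimate as independent. The number of donors per genotype is not stated here, so these p-values may not cover the spread between donors. For comparisons of the sorts, fits without the recipient block and permutations between groups treated the libraries of a recipient as independent. The blocked fit and the sign-flip test measured the spread of the differences within recipients. Symbols and places come from GENCODE M21 on GRCm38. Single values of some marker genes are not reported here.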

Additional observations from a re-analysis of the deposited data

Results flagged for a closer look

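Trbc1 stood out because the sorts differed in opposite directions in the genotypes: it was higher in the GFP-positive library of all 3 Het recipients and lower in that of all 3 KO recipients. The mean difference between GFP-positive and GFP-negative cells was 103 CPM larger in Het than in KO cells. This CPM difference was not itself tested. On the log2 scale the interaction of GFP and genotype was 1.10 (SE 0.52), and edgeR's p adjusted over all genes was 1.00, or 0.580 with the recipient as a block.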

How the results depend on the processing

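The number of called segments depended most on the recipient block. The pairing raised it from 2 to 20 in Het and from 1 to 12 in KO. The share of all tested genes that were called rose too, from 3.45% to 22.2% in Het and from 0.128% to 17.7% in KO. With the receptor scaling added to the block, chosen after the data were seen, 23 and 15 segments were called. There 24.1% and 42.1% of all genes were called. The number of called segments was 4 in Het with no filter, where 2.46% of all genes were called. It was 9 in Het and 2 in KO with DESeq2, where 5.92% and 1.78% of all genes were called. It was 5 and 0 when only the 2 groups compared were fitted, where 3.44% and 0.0804% were. Under the receptor scaling it was 2 in KO, where 24.7% of all genes were called. DESeq2 called 1 segment between genotypes in GFP-positive and 1 in GFP-negative cells, where 0.488% and 0.227% of all genes were called. With a library left out the count ran from 1 to 3 in Het, where 0.662% to 2.72% of all genes were called, and from 0 to 4 in KO. The 4 in KO came without KO GFP-positive replicate 1, where 12.6% of all genes were called. The other KO fits with a library left out called 0 segments and 0.0358% to 0.0828% of all genes. With the block and recipient 1, 2 or 3 left out it was 16, 13 and 14 in Het, where 12.0%, 7.88% and 13.6% of all genes were called, and 11, 7 and 6 in KO, where 29.0%, 4.82% and 2.35% were. The block changed no call of a segment in the interaction, and it was not fitted to the other comparisons between genotypes, since a recipient has 1 genotype. Treating the libraries as 6 against 6 in an exact permutation test without the replicate block gave adjusted p = 0.0238 for summed Trbv (-106 CPM). It gave the same for delta V (-0.58 CPM). Each adjustment replaced the p of that measure alone and kept the sign-flip p of the other measures. The excess overlap within recipients was 0.22 by Spearman correlation (p = 0.0556), 0.13 by segment families (p = 0.0556) and 0.15 without Trbv13-2 (p = 0.139) for Trbv, and 0.12 by families for Trav (p = 0.0556), in exact permutations. With a recipient left out it was 0.15 to 0.24 for Trbv and 0.18 to 0.32 for Trav, with an exact p = 0.0833, the smallest that 5 recipients allow. Some values not called in the fit of all 12 libraries without the block changed sign. Under the receptor scaling Tcrg-C1 in Het was 0.051, Trac 0.057 in Het and 0.40 in KO, and Trbc1 0.065 in KO. With the block added Trac was 0.052 and 0.40. Tcrg-C2 in Het was -0.040 with no filter and -0.067 with the block. With a library left out, Het differences ran from -4.74 to 0.40 for Tcrg-C1, from -0.69 to 0.40 for Tcrg-C2 and from -0.54 to 0.78 for Trgv2. With the block and Het recipient 1 left out they were 0.096, -0.31 and -0.11. The cause of these changes was not tested, beyond the samples left out. Depth limits the Trav values of KO GFP-positive library 2 (44 counts), and its effective number without families with d and n copies was not computed.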
